A study of Mus musculus with 3 samples.

Results

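The core circadian clock was described here by 10 genes, Per1, Per2, Per3, Cry1, Cry2, Arntl, Clock, Nr1d1, Nr1d2 and Dbp, taken by symbol from a table of 39377 genes; all 10 were found. The tissue was whole hippocampus, with mixed cell types, of wild-type (WT) C57BL/6 mice at postnatal day 14. RNA-seq of total RNA gave 3 libraries of 1 group, here called libraries 1, 2 and 3, and the labels do not say whether they came from separate animals. With no treated, mutant or older group, genes were compared with each other within each library. A p-value here sets a difference against the scatter between 3 libraries, whether for biological or technical reasons. That scatter was partly or wholly pooled over all tested genes, as given under the processing, so it is not that of the pair alone. Such a p-value cannot reveal an error in the level of a gene that is the same in every library. The time of day of tissue collection is not given in the sources used here.

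In mammalian cells the clock is a loop of transcription and feedback that runs with a roughly daily period. The proteins ARNTL (also called BMAL1) and CLOCK bind E-box sequences and activate the Per and Cry genes, whose products later repress that activation. The same activators drive Nr1d1, Nr1d2 and Dbp. The REV-ERB receptors encoded by Nr1d1 and Nr1d2 repress Arntl through ROR elements, and DBP activates genes that carry D-boxes. The loop runs in the suprachiasmatic nucleus of the hypothalamus, the central pacemaker, and in most other tissues, hippocampus included.

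All 10 genes were detected in all 3 libraries, at levels between 1.32 and 24.33 FPKM (fragments scaled by transcript length and by library depth). Their median level was 7.57 FPKM, against 10.5 FPKM over the 13337 genes with a mean of at least 1 FPKM, which were the genes tested. Of the 10 genes, 4 lay above that median, where 50% of all tested genes lie by definition. Dbp and Cry2 were the most abundant, followed by Nr1d2 and Nr1d1. Per1, Arntl, Clock and Cry1 formed a middle group at 5.95 to 7.99 FPKM, and Per3 and Per2 were the lowest. These groups were named after the values were seen.

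**Figure D1:**
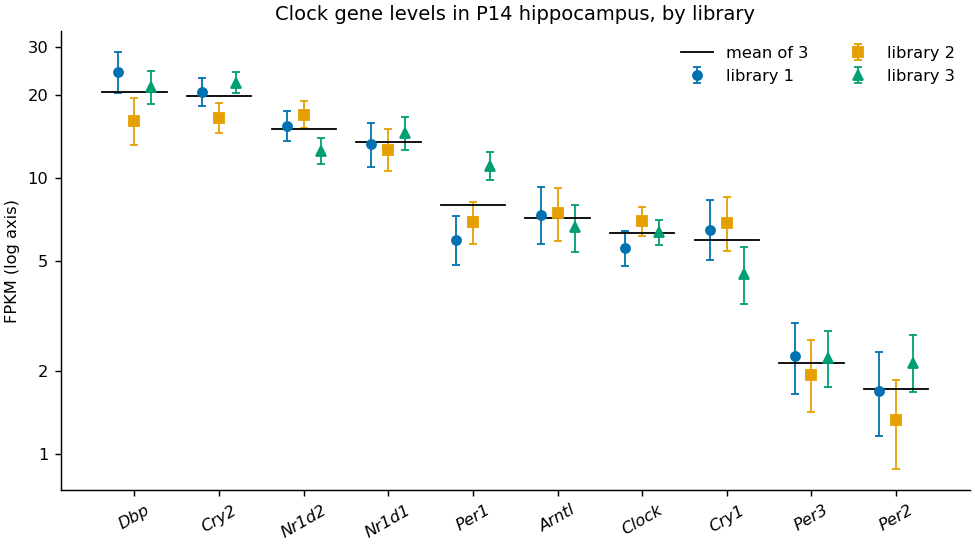
FPKM on a log axis of the 10 clock genes in libraries 1, 2 and 3, ordered by mean (black line); bars are exact 95% Poisson intervals of the estimated fragment numbers and cover counting error only. Dbp and Cry2 lie near 20 FPKM and Per3 and Per2 near 2 FPKM, and the Per1 value of library 3, at 11.09 FPKM, stands above those of libraries 1 and 2.

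Low FPKM values fell on a ladder of whole fragments, and its rungs gave a depth of about 3660000, 4110000 and 5830000 fragments in libraries 1, 2 and 3. In a transcript of 2 kb, 3 fragments then correspond to 0.475, 0.411 and 0.290 FPKM. The clock genes rested on 30 fragments for Per2 in library 2, the fewest, to 487 for Cry2 in library 3, the most. The tissue was checked by marker lists: all 5 genes each of hippocampal excitatory neurons (Slc17a7, Neurod6, Zbtb20, Prox1, Neurod2), astrocytes, oligodendrocyte lineage, microglia, endothelium and interneurons were at 1 FPKM or more in every library. Of the 5 markers of the suprachiasmatic nucleus and hypothalamus, Avp and Six6 were listed at 0 in all libraries, and the list summed to 0.25 to 1.28 FPKM. Thalamus genes summed to 16.1 to 19.9 FPKM, striatum genes to 14.4 to 18.5, the 4 cerebellum genes found to 5.99 to 13.4, blood genes to 647 to 809 and meninges genes to 103 to 125 FPKM. All 5 meninges genes were also at 1 FPKM or more in every library. So were 3 of 5 thalamus, 3 of 5 blood, 2 of 5 striatum, 2 of 5 choroid plexus and 1 of 4 cerebellum genes. Reaching 1 FPKM thus does not by itself separate hippocampus from neighbouring tissue. Choroid plexus genes were uneven and summed to 398, 1084 and 1312 FPKM in libraries 1, 2 and 3. In mixed tissue, fewer cells of a type and less RNA per cell cannot be told apart.

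Promoter sequence was available in the RefSeq table of GRCm38.p6 for 9 of the 10 genes, in 13 windows of 300 bases. Per2 had no window there and was not searched. The windows run from 250 bases before a transcript start to 50 after it. The windows were searched on both strands for the E-box CACGTG, the related E′-box CACGTT, the D-box TTATGTAA, the ROR element core TAGGTCA and the cAMP response element TGACGTCA. An E-box was present in 2 of the 13 windows, those of Per1 and Cry1, whereas 7.15% of all 32851 windows held one. The E′-box was found in 3 of the 13 windows, in Cry1, Cry2 and Nr1d1 (4.68% of all windows). The D-box was in 1 window, in Per3 (0.938%), and the ROR element core in 1, in Arntl (2.61%). The cAMP response element was in none of the 13 windows and in 1.79% of all windows. A match of letters is a description and does not show that a factor binds there, and elements outside these windows were not searched. The 4 windows below are shown because they hold an element of each class that was found and belong to genes of different roles: Per1 (chr11:69098699-69098998, plus strand), Cry1 (chr10:85185005-85185304, minus strand), Per3 (chr4:151044616-151044915, minus strand) and Arntl (chr7:113207261-113207560, plus strand). They are written 5′ to 3′ on the strand of the gene, with the matches in capitals, and the Per1 window belongs to a transcript start inside the annotated span of the gene.
Per1: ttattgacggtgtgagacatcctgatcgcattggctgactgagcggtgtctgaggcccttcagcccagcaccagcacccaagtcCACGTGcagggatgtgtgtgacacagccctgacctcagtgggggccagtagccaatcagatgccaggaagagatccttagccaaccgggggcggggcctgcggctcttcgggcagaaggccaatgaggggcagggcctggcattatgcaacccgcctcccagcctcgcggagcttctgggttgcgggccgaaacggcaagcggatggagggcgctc
Cry1: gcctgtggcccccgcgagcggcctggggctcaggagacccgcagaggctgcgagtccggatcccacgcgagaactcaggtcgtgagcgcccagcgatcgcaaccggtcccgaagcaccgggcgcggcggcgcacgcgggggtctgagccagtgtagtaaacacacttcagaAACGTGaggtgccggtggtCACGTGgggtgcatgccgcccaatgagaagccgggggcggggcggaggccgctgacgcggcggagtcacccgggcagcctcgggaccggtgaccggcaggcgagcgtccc
Per3: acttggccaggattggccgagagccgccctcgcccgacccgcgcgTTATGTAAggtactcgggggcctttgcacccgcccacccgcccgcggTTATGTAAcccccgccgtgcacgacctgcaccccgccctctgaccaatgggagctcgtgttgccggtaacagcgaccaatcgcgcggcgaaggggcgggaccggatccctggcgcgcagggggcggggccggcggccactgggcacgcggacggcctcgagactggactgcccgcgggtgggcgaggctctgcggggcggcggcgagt
Arntl: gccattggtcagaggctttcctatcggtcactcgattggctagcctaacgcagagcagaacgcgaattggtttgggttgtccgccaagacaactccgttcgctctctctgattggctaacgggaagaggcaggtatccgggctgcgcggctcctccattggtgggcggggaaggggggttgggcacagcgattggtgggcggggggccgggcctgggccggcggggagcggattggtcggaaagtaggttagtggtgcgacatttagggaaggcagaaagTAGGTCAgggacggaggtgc
Counted in bases from the annotated start, with negative positions before it, the Per1 E-box begins at -166. In Cry1 the E′-box, read here on its other strand as AACGTG, begins at -79 and the E-box at -60. Per3 carries 2 copies of the D-box, at -205 and -158, and the ROR element core of Arntl begins at 30.

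**Figure D2:**
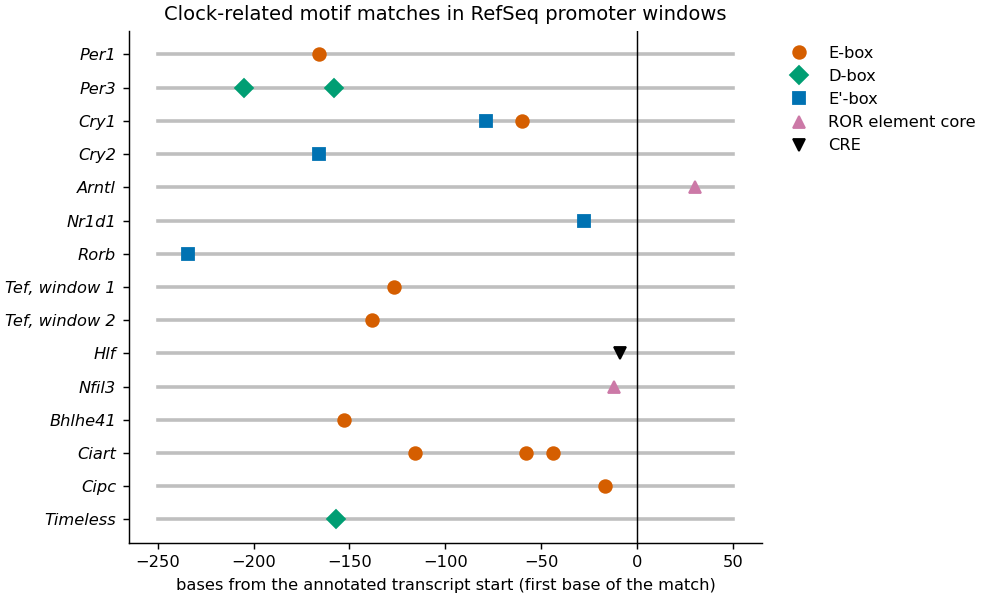
Matches to 5 motifs (symbols) in the RefSeq promoter windows (grey lines) of core clock genes and further clock genes that held at least 1 match; the horizontal axis is the distance in bases from the annotated transcript start to the first base of the match. Per3 is the core clock gene with 2 matches to the D-box, and Ciart, a repressor gene of the further list, has 3 E-boxes, at -116, -58 and -44.

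Among the activators, Arntl and Clock, whose proteins work as a pair, stood close together. Arntl (chromosome 7, 113207465 to 113314126, plus strand, GRCm38) was at 7.38, 7.45 and 6.63 FPKM, with a mean of 7.15 ± 0.455 FPKM (SD, n = 3). It shares 33 of 3090 exonic bases with Gm45355 on the opposite strand, which was not analysed here. Clock (chromosome 5, 76209868 to 76304792, minus strand) was at 5.57, 6.98 and 6.36 FPKM, with a mean of 6.30 ± 0.707 FPKM. Arntl was above Clock in 3 of 3 libraries, by a ratio of 1.14 ± 0.156, but the difference of 0.16 log2 units was not larger than the spread between libraries (limma, Benjamini-Hochberg adjusted p = 0.308; 0.298 to 0.667 over 7 alternatives). Npas2, a Clock paralog that can replace it as the partner of ARNTL, was at 5.43, 4.08 and 8.65 FPKM. Clock stood above Npas2 in libraries 1 and 2 and below it in library 3, and the pair was not called (limma adjusted p = 0.660; 0.256 to 0.705 over 7 alternatives). The Arntl paralog Arntl2 was far lower, at 0.63, 0.92 and 2.23 FPKM, and rested on 6, 10 and 35 fragments.

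The Per genes differed in level. Per1 (chromosome 11, 69095217 to 69109960, plus strand) was at 5.95, 6.92 and 11.09 FPKM, with a mean of 7.99 ± 2.73 FPKM (SD, n = 3). Per2 (chromosome 1, 91415982 to 91459324, minus strand) was at 1.69, 1.32 and 2.14 FPKM, and Per3 (chromosome 4, 151003652 to 151044665, minus strand) at 2.26, 1.93 and 2.22 FPKM. Per3 lies within the span of Camta1 and shares no exonic base with it. Every library had Per1 well above the other members of the family. Per1 carried 66.6% ± 5.96 of the summed FPKM of the Per genes, Per3 18.7% ± 4.24 and Per2 14.6% ± 2.16. Per1 was 4.65 ± 0.977 times Per2 and 3.74 ± 1.19 times Per3, and both differences were called (limma, higher in 3 of 3 libraries). The adjusted p against Per3 was 0.000446 in limma, with 0.000109 to 0.00331 over 7 alternatives, and against Per2 it was at most 0.000267 over the same alternatives; 79.0% of all genes were called higher than Per3 and 81.5% higher than Per2. Per3 was 1.28 ± 0.218 times Per2, which was not called (limma adjusted p = 0.389; 0.140 to 0.609 over 7 alternatives). PER1 and PER2 are the members the mouse clock depends on most for its rhythm, while loss of PER3 has milder effects.

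Of the cryptochrome genes, which encode the strongest repressors of the activator pair, Cry2 was the abundant member. Cry2 (chromosome 2, 92403646 to 92434043, minus strand) was at 20.61, 16.57 and 22.25 FPKM, with a mean of 19.8 ± 2.92 FPKM. Cry1 (chromosome 10, 85131700 to 85185064, minus strand) was at 6.51, 6.87 and 4.48 FPKM, with a mean of 5.95 ± 1.29 FPKM. The values did not overlap: the lowest Cry2 value was above the highest of Cry1. Cry2 made up 76.0%, 70.7% and 83.2% of their sum in libraries 1, 2 and 3. The ratio of Cry2 to Cry1 was 3.17, 2.41 and 4.97, with a difference of 1.59 log2 units that was called (limma, higher in 3 of 3 libraries, adjusted p at most 0.00148 over 7 alternatives; 54.0% of all genes were called higher than Cry1). A transcript on the opposite strand, D930015M05Rik, shares 149 of the 4342 exonic bases of Cry2 and was listed at 0 in all libraries.

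The REV-ERB genes were close to each other. Nr1d2 (chromosome 14, 18204054 to 18239127, minus strand) was at 15.52, 17.02 and 12.56 FPKM, and Nr1d1 (chromosome 11, 98767932 to 98775333, minus strand) at 13.28, 12.65 and 14.54 FPKM. Nr1d2 was above Nr1d1 in libraries 1 and 2 and below it in library 3, and the pair was not called (0.14 log2 units, limma adjusted p = 0.405; 0.0921 to 0.972 over 7 alternatives). The end of Nr1d1 overlaps Thra, the thyroid hormone receptor alpha gene, on the opposite strand, over 263 of its 2721 exonic bases (9.67%). Thra was at 787, 748 and 804 FPKM. Whether reads were counted by strand is not given in the sources used here; without strand, reads of these genes cannot be told apart over the shared bases.

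Dbp encodes a bZIP activator whose transcript is among those with the widest daily swing in mouse tissues. It lies on chromosome 7 (45705088 to 45710203, plus strand) and was at 24.33, 16.15 and 21.42 FPKM, with a mean of 20.6 ± 4.15 FPKM (SD, n = 3), on about 139, 107 and 201 fragments. Library 2 was the lowest. The gene shares 539 of its 1837 exonic bases (29.3%) with Sphk2 on the opposite strand, which was at 5.08, 6.00 and 6.17 FPKM. Dbp was 2.90 ± 0.634 times Arntl, higher in 3 of 3 libraries (1.39 log2 units, limma adjusted p = 0.000305; 6.78e-05 to 0.00581 over 7 alternatives). Nr1d1 was 1.90 ± 0.262 times Arntl (0.83 log2 units, higher in 3 of 3 libraries, limma adjusted p = 0.000934; 0.000332 to 0.00741 over 7 alternatives); 52.5% of all genes were called higher than Arntl. In mouse tissues Dbp and Nr1d1 peak at a time of day roughly opposite to Arntl, and with no time of collection these ratios cannot be placed in the cycle. The overlaps with Sphk2 and Thra also leave the levels of Dbp and Nr1d1 uncertain.

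Over all 45 pairs of the 10 genes, 34 were called different, each with the same sign in 3 of 3 libraries. Over all genes set against the lower gene of a pair, 82.3% were called (51.1% higher), so 34 of 45 is no more than genes in general gave. With the prior variance taken from the spread of each gene itself, the same 34 pairs were called, against 81.2% of all genes. All 32 pairs between the high, middle and low groups were called, against 2 of the 13 pairs within a group, and the groups were formed on these same values. The calls within a group were Dbp above Nr1d1 (0.56 log2 units, limma adjusted p = 0.00840; 0.00266 to 0.0427 over 7 alternatives) and Cry2 above Nr1d1 (0.51 log2 units, limma adjusted p = 0.00573; 0.00189 to 0.0285 over 7 alternatives), while 36.2% of all genes were called higher than Nr1d1. In the order of means the neighbours Dbp and Cry2, Cry2 and Nr1d2, Nr1d2 and Nr1d1, Per1 and Arntl, Arntl and Clock, Clock and Cry1, and Per3 and Per2 were not called. Nr1d1 above Per1 was called (0.73 log2 units, limma adjusted p = 0.0295), and it was lost without replicate 1 (adjusted p = 0.184) or without replicate 2 (adjusted p = 0.199); over 7 alternatives its adjusted p ran from 0.000316 to 0.199, and the pair also missed the threshold with a pseudocount of 0.1. Of all genes, 43.9% were called higher than Per1. With the strand setting not given, the overlap with Thra leaves the level of Nr1d1 uncertain in every pair that holds it. Nr1d2 above Per1 was called too (0.87 log2 units, limma adjusted p = 0.00911; 9.64e-06 to 0.194 over 7 alternatives) and was likewise lost without replicate 1 (adjusted p = 0.114) and without replicate 2 (adjusted p = 0.194). With the prior variance from the spread of each gene itself, limma gave adjusted p = 0.0140 for Nr1d1 and 0.0281 for Nr1d2 above Per1. A difference of more than 1 log2 unit, which is 2-fold in FPKM + 1, was shown for 17 of the 45 pairs. The share was 49.4% of all genes set against the same lower genes. On this scale a low gene needs a ratio of FPKM larger than 2 to pass.

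**Figure D3:**
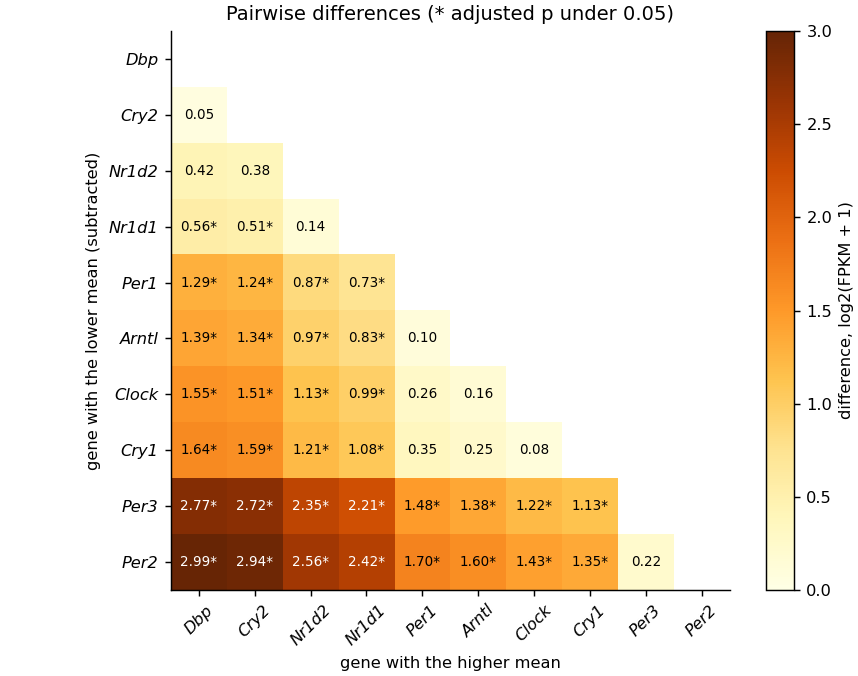
Mean difference in log2(FPKM + 1) for each of the 45 pairs of clock genes, the gene with the higher mean (columns) minus the gene with the lower mean (rows); an asterisk marks an adjusted p under 0.05 in limma. The unmarked cells lie along the diagonal, inside the high, middle and low groups, and the largest difference is 2.99 log2 units, between Dbp and Per2.

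The 10 genes were not all highest in the same library, and whether their levels varied together was not tested. Per1, Per2, Cry2 and Nr1d1 had their highest value in library 3, Cry1, Arntl, Clock and Nr1d2 in library 2, and Per3 and Dbp in library 1. That is 4, 4 and 2 of 10, where 30.9%, 32.6% and 36.5% of all tested genes were highest in libraries 3, 2 and 1. Cry1, Arntl and Nr1d2 were at their lowest in library 3, as were 33.8% of all tested genes. In library 2, 5 genes were at their lowest, Per2, Per3, Cry2, Nr1d1 and Dbp (33.2% of all genes), and in library 1, Per1 and Clock (33.0% of all genes). Scaling the libraries to the same median moved Per3 to library 3.

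Per1 varied most among the 10 genes, with an SD of 0.418 on the log2(FPKM + 1) scale, more than 88.8% of the 5339 genes within 1 log2 unit of its level. Its 95% counting interval in library 3, 9.83 to 12.4 FPKM, lay above the intervals of library 1, 4.83 to 7.28, and library 2, 5.75 to 8.21. The ratio of Per1 to Arntl was 0.806, 0.929 and 1.67, so Per1 was below Arntl in libraries 1 and 2 and above it in library 3. Dbp followed with an SD of 0.288 and Cry1 with 0.284. Arntl and Per3 were the steadiest, with SDs of 0.0818 and 0.0842, which stood at percentiles 13.0 and 9.46 among genes at a like level. The median SD of the 10 genes was 0.210, against 0.175 over all tested genes, and 6 of 10 lay above that median, where 50% of all genes lie. Counting intervals of at least 2 libraries were apart for 4 of the 10 genes, Per1, Cry2, Nr1d2 and Dbp, against 34.2% of all genes with a known transcript length. These intervals cover counting error alone and take each estimated fragment as a separate molecule. Where reads are copies of a molecule, the intervals are too narrow.

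**Figure D4:**
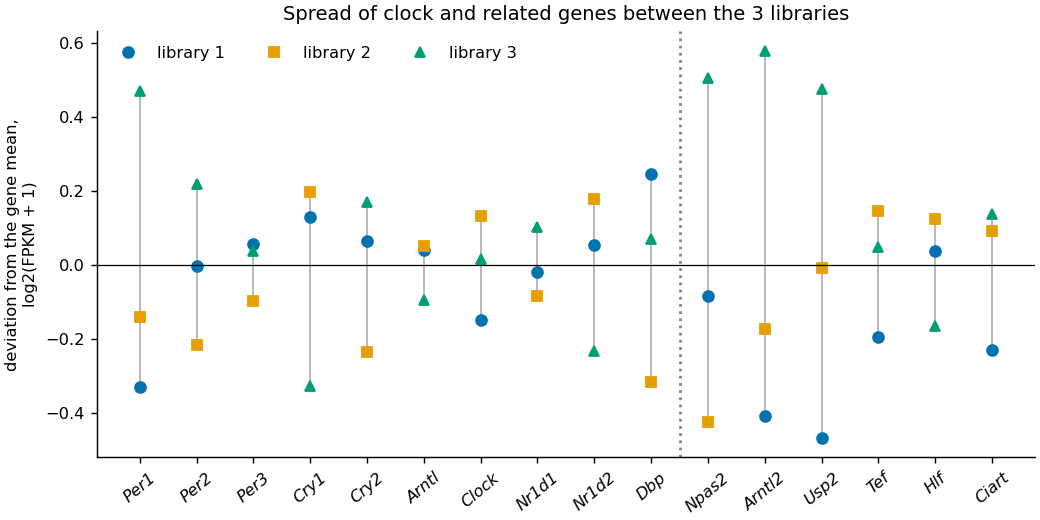
Deviation of each library from the mean of the gene, in log2(FPKM + 1), for the 10 clock genes (left of the dotted line) and 6 of the 20 further clock genes. The 6 are a selection, and Arntl2, Usp2 and Npas2 had the largest SDs of the 20, at 0.515, 0.471 and 0.468. Library 3 (triangles) is, among others, the highest for Per1, Per2, Npas2, Arntl2 and Usp2 and the lowest for Cry1, Nr1d2 and Arntl.

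Genes of other groups also differed between the libraries. Of 5 choroid plexus markers, 4 were highest in library 3 and all 5 lowest in library 1, with Ttr, the transthyretin gene, at 392, 1071 and 1296 FPKM. Per1 is itself known as a gene that responds to neuronal activity and to glucocorticoids. Of 5 tested activity-induced genes, 4 were highest in library 3, against 30.9% of all genes. Of these, Nr4a1 was at 7.10, 9.13 and 10.28 FPKM, while Fos, at 3.78, 1.95 and 4.01 FPKM, and Egr1, at 10.27, 8.58 and 10.31 FPKM, were nearly level between libraries 1 and 3 and lowest in library 2. Of 6 glucocorticoid-related genes, 5 were highest in library 2 (32.6% of all genes). The part of any of these in the spread of Per1 was not tested.

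Further genes of the clock were read against Clock, from a list of 20 genes, all of them tested. Of these, 10 were higher than Clock, 8 were lower, and 2, Npas2 and Hlf, were not called. Over all genes, 55.1% were called higher than Clock and 28.8% lower, so the counts are close to the background.

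Among the D-box factors, Tef, a PAR bZIP paralog of Dbp, was the highest, at 43.21, 54.97 and 51.39 FPKM. It was 2.53 ± 0.821 times Dbp, higher in 3 of 3 libraries (limma, adjusted p = 0.00293 with the prior variance from the spread of each gene itself; 23.7% of all genes were called higher than Dbp). Dbp was 2.94 ± 0.762 times Hlf, the remaining PAR bZIP gene, at 7.32, 7.82 and 6.23 FPKM (limma, lower for Hlf in 3 of 3 libraries, adjusted p = 0.00126 with that prior; 58.0% of all genes were called lower than Dbp). Tef thus held 64.1% ± 6.01 of the summed FPKM of these paralogs and Dbp 26.7% ± 6.03. Nfil3, which encodes the repressor that competes for D-boxes, was at 3.80, 3.23 and 4.17 FPKM and lower than Clock (-0.63 log2 units, limma adjusted p = 0.00427; 0.00378 to 0.0309 over 7 alternatives).

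Rora and Rorb encode ROR activators, which oppose REV-ERB at Arntl, and both were low. Rora was at 2.81, 3.42 and 2.79 FPKM and Rorb at 1.53, 1.14 and 0.94 FPKM, and both were called lower than Clock. Rora was 2.60 ± 0.663 times Rorb (0.87 log2 units, limma adjusted p = 0.000184, and 0.00288 with the prior variance from the spread of each gene itself; 88.4% of all genes were called higher than Rorb).

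Of the further repressors, Cipc, the gene of a CLOCK-binding repressor, led at 15.89, 16.28 and 14.15 FPKM and was higher than Clock. Bhlhe40, whose E-box-binding product competes with the activators, was at 13.49, 11.12 and 12.48 FPKM and also higher, while its paralog Bhlhe41 was at 2.31, 2.36 and 2.21 FPKM and lower. Bhlhe40 was 5.40 ± 0.603 times Bhlhe41 (limma adjusted p = 1.21e-05, and 5.68e-05 with the prior variance from the spread of each gene itself; 78.0% of all genes were called higher than Bhlhe41). Ciart, which encodes the repressor CHRONO, was at 3.78, 4.97 and 5.17 FPKM. Its call as lower than Clock (-0.38 log2 units, limma adjusted p = 0.0295) was lost without replicate 1, replicate 2 or replicate 3, at adjusted p 0.0660, 0.0904 and 0.141; over 7 alternatives the range was 0.0285 to 0.141. Timeless, best known in mammals for replication fork protection, was at 1.32, 1.41 and 0.76 FPKM and lower.

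Among the kinases that modify clock proteins, the casein kinase 1 genes Csnk1e and Csnk1d, whose kinases mark PER proteins for degradation, were at 32.77, 36.32 and 37.94 FPKM and at 30.18, 28.14 and 30.65 FPKM. Csnk1e was 1.20 ± 0.106 times Csnk1d, in 3 of 3 libraries but not called (limma adjusted p = 0.0767, and 0.107 with the prior variance from the spread of each gene itself). Csnk2a1, a casein kinase 2 subunit gene, and Gsk3b, the glycogen synthase kinase 3 beta gene, were at 27.5 ± 5.64 and 16.3 ± 2.17 FPKM. All 4 kinase genes were called higher than Clock, as were 55.1% of all genes.

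In the ubiquitin system, Fbxl21, which encodes an F-box protein that acts on CRY proteins, was at 0.79, 1.39 and 1.51 FPKM, on 5, 10 and 15 fragments. Fbxw11 and Btrc, whose products recognise phosphorylated PER proteins, were at 40.9 ± 4.17 and 15.4 ± 0.697 FPKM. Usp2, a deubiquitinase gene with a strong daily rhythm in mouse tissues, was at 10.59, 14.92 and 21.26 FPKM. Fbxl21 was called lower than Clock, as were 28.8% of all genes, and Fbxw11, Btrc and Usp2 higher (55.1% of all genes). Usp2 had an SD of 0.471 on the log2(FPKM + 1) scale, more than 95.1% of genes at a like level. Like Per1, Npas2 and Arntl2 it was highest in library 3. So were 9 of the 20 further clock genes in all, against 30.9% of all tested genes.

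**Figure D5:**
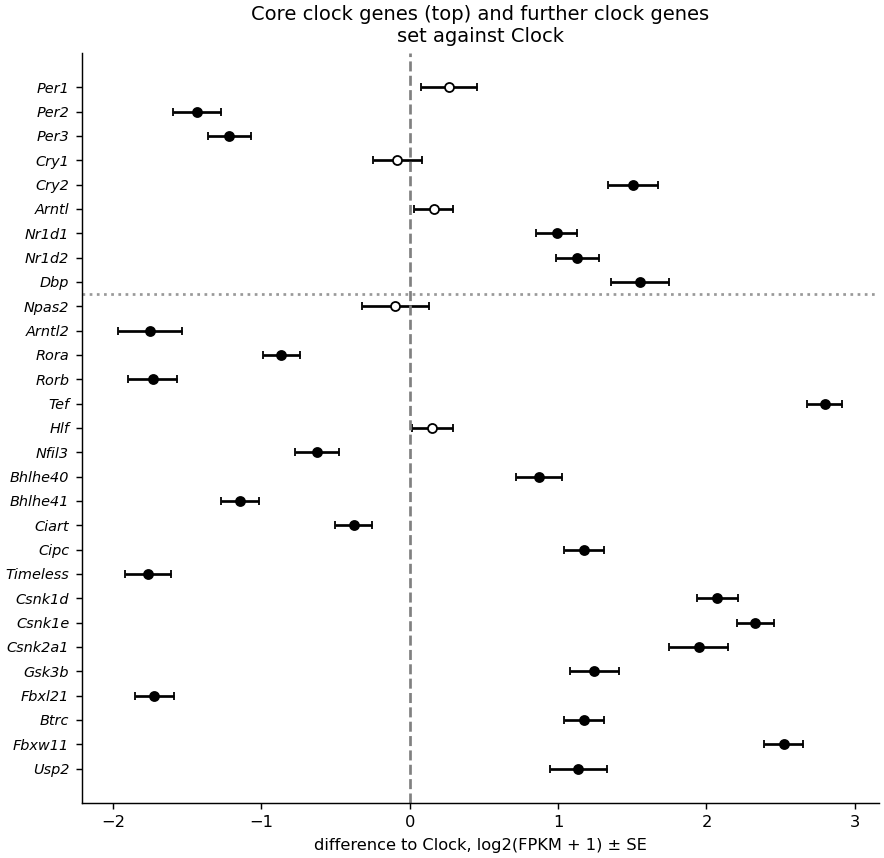
Difference to Clock in log2(FPKM + 1), as the mean of the 3 libraries with its SE (prior variance from the spread of each gene itself), for the other core clock genes above the dotted line and 20 further clock genes below it; filled points had an adjusted p under 0.05 in limma. Tef, at 2.80 log2 units, is the highest and Timeless, at -1.76, the lowest.

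The gene most like each clock gene was taken as the one with the smallest Euclidean distance in log2(FPKM + 1) over the 3 libraries. For Per1 this was Slc46a1, the proton-coupled folate transporter gene, at 5.51, 6.84 and 10.70 FPKM (distance 0.107). For Arntl it was Slc6a9, the glycine transporter 1 gene, at 7.40, 7.48 and 6.64 FPKM (0.00645), for Clock the kinase gene Stk3 (0.0456), for Cry2 the deubiquitinase gene Usp7 (0.0497), for Cry1 Wdr31 (0.0320) and for Dbp Sfswap (0.0548). For Per2, Per3, Nr1d1 and Nr1d2 they were Fat3, Klhdc9, Stk39 and 5730455P16Rik, at distances of 0.0393, 0.0510, 0.0202 and 0.0392. None of these nearest genes was itself in the clock lists, which held 10 and 20 of the 13337 tested genes. So few listed genes make such a match rare in any case, and the distances were not set against those of other genes.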

How the data were processed

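Hippocampal total RNA was read in pairs of 150 bases on a NovaSeq instrument, per the labels' protocols. The authors deposited 1 table of FPKM values holding a column for each library, per the file headers; the submitters' processing notes name Bowtie2, GRCm38 and mm10. Which tool counted, with which annotation, strand setting or version, is not stated there, so values of overlapping or near-identical genes are uncertain. The transcript length used for each gene is not stated either, and every comparison between genes depends on it. An error in the level of a gene that is the same in every library would not show in the p-values. The calls therefore concern FPKM values as listed. Each column was tied to its sample by title number.

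The scale was log2(FPKM + 1), on which low genes differ by less than their ratio. For each clock gene as the lower of a pair, the within-library difference to it of every gene averaging 1 FPKM or more was entered into limma 3.58.1 (R 4.3.3) (intercept only, two-sided, null of no difference), with Benjamini-Hochberg adjustment over all 13336 other genes and calls at adjusted p under 0.05. All such differences share the deviations of the subtracted gene, and for Dbp, Nr1d2, Per1, Cry1 and Per2 the prior degrees of freedom came out infinite, so that 1 pooled variance served all genes there and the adjusted p could come out smaller or larger than with the spread of each gene itself. A variant with the prior variance from the spread of each gene itself (2.89 prior degrees of freedom) was therefore added after the data were seen. There, 1 prior variance shared by all genes was estimated from the variances of single genes between libraries and doubled for a difference. Its moderated t-tests followed the limma formula but were computed directly, also where they are labelled limma above. Alternatives were a pseudocount of 0.1, no filter, a null of at most 1 log2 unit, a variance trend, and leaving out each replicate; the 7 alternatives quoted beside p-values leave out the 1 with the 2-fold null.

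Depth was estimated, after the data were seen, from genes whose single transcript in GENCODE M21 had 800 bases or more, by choosing the worth of 1 fragment and the bases taken off the transcript length so that values came out whole. Of values up to 4 fragments, 93.7%, 92.4% and 91.6% were within 0.15 of a whole number, where evenly spread values would give 30% before fitting. Fragment numbers used the principal transcript. Promoter windows and gene spans came from RefSeq GRCm38.p6 and GENCODE M21. Other steps ran in Python 3.11.15 (matplotlib 3.10.9, scipy 1.17.1, pandas 2.3.3, numpy 2.4.6). The members and gene lists were chosen with earlier results of these data known. The genes named were the 10 members, the clock pathway list (without items that are not reported here, which its counts leave out too), the nearest gene of each member and up to 3 genes of the activity and glucocorticoid lists; overlap partners and Ttr were added because a result touches them.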

Additional observations from a re-analysis of the deposited data

How the results depend on the processing

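The count of 34 called pairs was 33 to 36 with a pseudocount of 0.1, without a filter, with a variance trend and with the prior variance from the spread of each gene itself, and 32 to 34 when a replicate was left out; under that prior the 34 called pairs were the same pairs. When a difference had to exceed 1 log2 unit it was 17, with 5 pathway genes higher and 4 lower than Clock in place of 10 and 8, a stricter question by construction. When a replicate was left out the pathway counts were 10 higher and 7 lower. No called difference changed sign under these alternatives. Dbp above Nr1d2 passed with a variance trend and without replicate 2, and Cry2 above Nr1d2 with a variance trend; the cause was not tested. A pseudocount of 1 moved the ratio of Per1 to Per2 to 3.28, of Bhlhe40 to Bhlhe41 to 4.06 and of Rora to Rorb to 1.84. With libraries scaled to the same median, with shifts of -0.02 to 0.02 log2 units, 1 in place of 2 clock genes was highest in library 1. Depth limits Per2, Per3, Arntl2, Rora, Rorb, Nfil3, Ciart, Timeless and Fbxl21, each under 50 fragments in at least 1 library. No pairing of samples between groups was possible, because the samples form 1 group. Genes were compared within each library, so the 2 genes of a comparison were paired by library.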
